A study of Mus musculus with 42 samples.

Results

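The mRNAs of 7 RNA-binding repressors were followed in mouse embryonic stem cells from which Tnrc6a, a scaffold protein of RNA silencing, had been pulled down with its bound RNA. The genes are Pum2 (a Pumilio protein), Nanos1, the Roquin genes Rc3h1 and Rc3h2, and the zinc finger genes Zfp36, Zfp36l1 and Zfp36l2. They were taken by symbol as factors that act through 3′ UTRs, and Nanos1 was chosen by its measured values here, the IP and input levels that differ between the 2 knockouts. Each symbol has 1 row in each of 2 count tables, which hold 18825 and 19866 genes, and each of the 7 passed the filter on low counts that left 18772 and 19778 genes for testing. Because the difference between the knockouts entered the choice, that contrast is given as a description with no test for any of the 7, and Nanos1 is given with no test in every comparison of experiment 2 that involves a knockout.

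All groups share the GFP_5xT71BS reporter and a stably transfected FLAG-Cas9::T2A::Blasticidin in 129S6/SvEvTac cells, grown on gelatin in serum and LIF. Untagged cells carry nothing further, tagged cells carry HA-AVI-Tnrc6a, and the cells labelled Trim71KO and Ago2KO carry the tag together with a knockout of Trim71, an RNA-binding protein of stem cells, or of Ago2, an Argonaute protein. From each, RNA was sequenced from the lysate (input) and from what anti-HA beads held back (IP), with 3 dishes per group. Experiment 1 has 18 libraries in 6 groups (untagged, tagged and Trim71KO), and experiment 2 has 24 libraries in 8 groups, which add Ago2KO. The labels do not say how many clones a knockout line stands for, so the spread is between dishes of a line.

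Argonaute proteins load microRNAs, and Tnrc6a links them to the CCR4-NOT deadenylase, which shortens poly(A) tails of the targets. Pumilio proteins read UGUA-containing elements, Nanos proteins bind beside them as partners, Roquin proteins read stem-loops, and the Zfp36 family reads AU-rich elements. Several of them also hand their targets to CCR4-NOT, so they are repressors that work beside the microRNA route. In stem cells and early embryos members of these families are known for holding down mRNAs of signalling, cell-cycle and differentiation genes. The libraries address whether mRNAs that encode these repressors are themselves recovered with Tnrc6a.

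All 7 genes have a place in RefSeq's annotation of GRCm38.p6, and the submitters' processing notes name GRCm38. Pum2 lies at chr12:8674092-8752583 and Nanos1 at chr19:60755987-60759914, both on the plus strand. Rc3h1 lies at chr1:160906411-160974976 on the plus strand and Rc3h2 at chr2:37368861-37424370 on the minus strand. Zfp36 lies at chr7:28376784-28379228, Zfp36l1 at chr12:80107760-80113013, both on the minus strand, and Zfp36l2 at chr17:84183924-84187947.

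Library totals ran from 12587257 to 23657840 counts in experiment 1 and from 16296447 to 21026552 in experiment 2. All 8 markers of pluripotent stem cells were present, at a summed level of 6304 to 8776 CPM (counts scaled by library total and TMM factor) over the input libraries. Ago2 RNA in input was 353 ± 34.9 CPM in tagged and 162 ± 4.76 CPM in Ago2KO cells (mean ± SD, n = 3, as throughout). Trim71 RNA in input was 282 ± 23.5 CPM in tagged and 377 ± 9.61 CPM in Trim71KO cells of experiment 2, and 241 ± 21.2 and 282 ± 3.18 CPM in experiment 1. It was not lower in Trim71KO cells, so it does not check that label, and every direction below refers to cells labelled so. Tnrc6a RNA itself was at 12945 to 29473 CPM in IP of tagged and 74.2 to 94.0 CPM in IP of untagged cells over both experiments.

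Per kilobase of the gene length given in the tables, the 7 mRNAs covered a wide range in input. In untagged cells of experiment 1 the level was 61.9 CPM per kilobase (RPKM) for Zfp36l1, 20.1 for Pum2, 12.5 for Zfp36l2, 5.66 for Zfp36, 3.10 for Rc3h1, 1.67 for Nanos1 and 1.64 for Rc3h2. The libraries of neighbours in this order did not overlap except for Nanos1 and Rc3h2. In experiment 2 the order was the same for the upper 5, from 61.3 RPKM for Zfp36l1 to 5.24 for Rc3h1, with Rc3h2 at 2.45 and Nanos1 at 2.13. Zfp36l1 and Pum2 were thus the abundant members in these cells, and Nanos1 and Rc3h2 the scarce ones. The Rc3h2 gene also holds the small RNA Snord90, and how counting treated overlaps is not given in the sources used here. The length given for Zfp36, 3470 bases, exceeds its RefSeq span of 2445 bases, so its level per kilobase is uncertain.

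**Figure D1:**
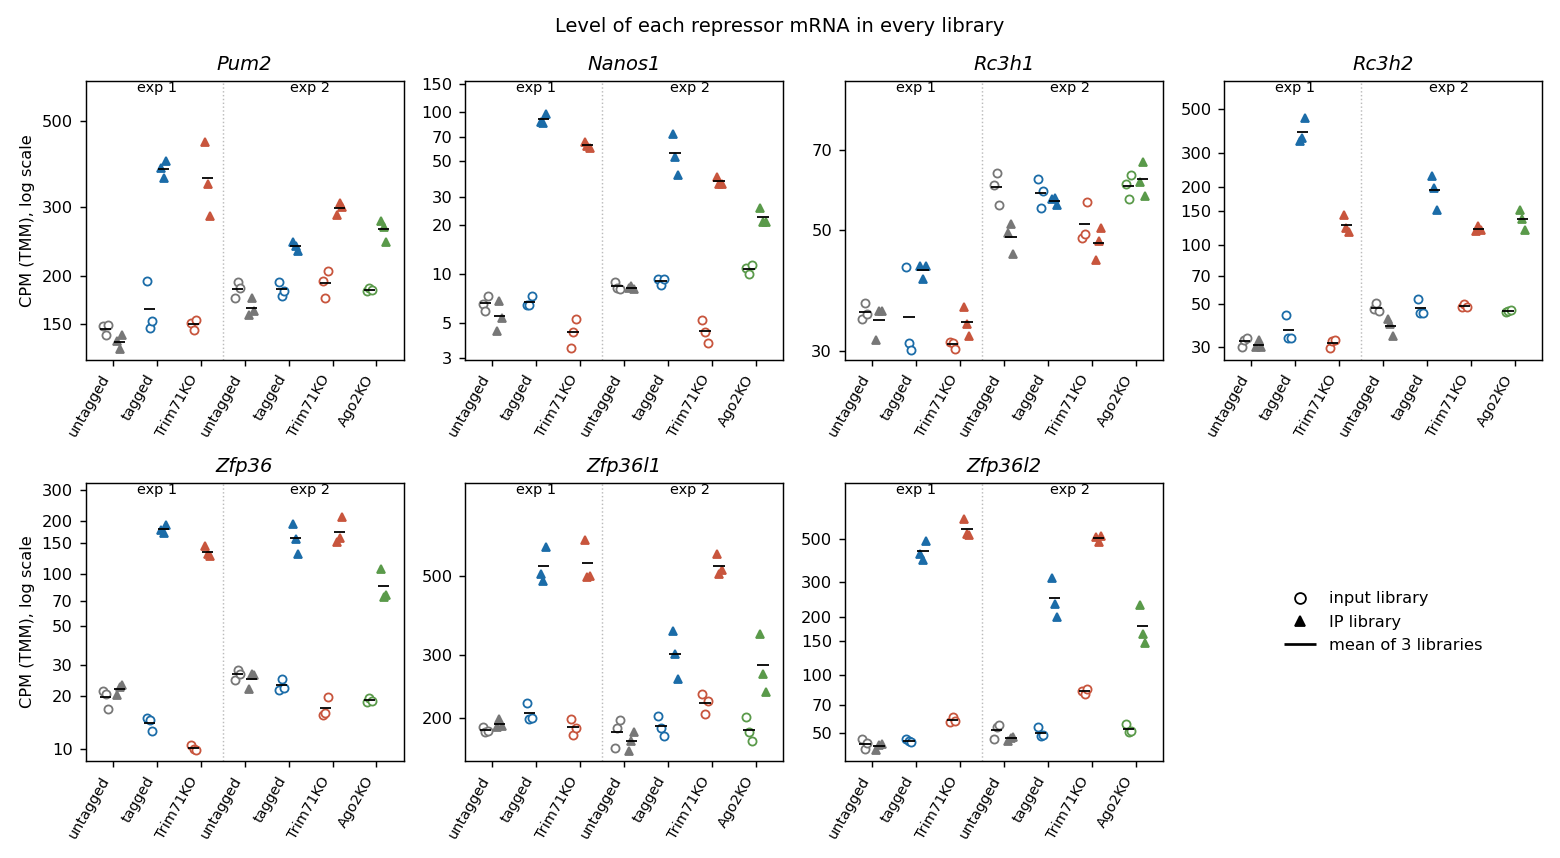
Level of each of the 7 mRNAs in all 42 libraries, in CPM on a log axis, by genotype and experiment, with open circles for input, filled triangles for IP and bars for the mean of 3 libraries. IP of untagged cells sits near input for all 7, and IP of tagged cells lies far above input for Nanos1, Rc3h2, Zfp36 and Zfp36l2.

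Tag-specific association compares the log2 IP to input ratio of tagged cells with that of untagged cells, by subtraction. It was called higher for 6 of the 7 mRNAs in both experiments, and the smaller rise of Rc3h1 was not called. Among all genes, 28.1% were called higher in this comparison in experiment 1 and 18.9% in experiment 2 (edgeR, adjusted p under 0.05 over all genes tested). The median log2 difference was 3.30 over the 7 and -0.10 over all genes in experiment 1, and 2.33 against -0.03 in experiment 2. In untagged cells the IP to input ratio of each of the 7 lay between 0.80-fold and 1.12-fold, so their share of bead-bound RNA was near their share of input. How much RNA beads alone held back is not given by these ratios.

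Of the Pumilio and Nanos pair, Nanos1 was the more strongly recovered. Its IP libraries of tagged cells held 86.8, 86.2 and 97.9 CPM in experiment 1, against 4.44, 6.76 and 5.30 CPM in untagged IP and 6.40, 6.42 and 7.25 CPM in tagged input. The groups lay far apart, and the tagged IP to input ratio was 13.5-fold. The tag-specific log2 difference was 4.00 (SE 0.20, edgeR adjusted p 2.45e-14), which is higher than that of 98.7% of genes tested. In experiment 2 tagged IP held 73.3, 53.1 and 40.9 CPM and untagged IP 8.20, 8.41 and 8.01 CPM, a difference of 2.65 (SE 0.22, edgeR adjusted p 1.63e-10).

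Pum2, whose protein binds Pumilio elements, was recovered less. Tagged IP held 379, 356 and 393 CPM in experiment 1 and tagged input 193, 147 and 152 CPM, without overlap, for a ratio of 2.29-fold. The tag-specific difference was 1.31 (SE 0.17, edgeR adjusted p 6.78e-07) in experiment 1. In experiment 2 it was 0.53 (SE 0.09, edgeR adjusted p 4.50e-05), with 244, 238 and 231 CPM in tagged IP against 159, 175 and 162 CPM in untagged IP.

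The Roquin genes, which encode paralogous RING and zinc finger proteins, separated. Rc3h2 stood at 343, 357 and 452 CPM in tagged IP of experiment 1, against 44.0, 33.5 and 33.6 CPM in tagged input and 30.3, 32.5 and 30.04 CPM in untagged IP. That is a tagged IP to input ratio of 10.4-fold and a tag-specific difference of 3.43 (SE 0.17, edgeR adjusted p 2.00e-14). For Rc3h1 tagged IP held 43.0, 40.7 and 43.0 CPM and tagged input 42.8, 31.0 and 30.1 CPM, which overlap. Its difference of 0.34 (SE 0.15) did not pass (edgeR adjusted p 0.0644), although it passed in 4 of 8 other settings and when any of 4 libraries was left out. Without tagged input library 1, the one at 42.8 CPM, it was 0.54 (edgeR adjusted p 0.00107). In experiment 2 the values were 2.33 (SE 0.15, edgeR adjusted p 2.03e-12) for Rc3h2 and 0.25 (SE 0.11, edgeR adjusted p 0.0854) for Rc3h1. There Rc3h1 passed in 1 of 8 other settings, the replicate block pairing IP with input (0.25, edgeR adjusted p 0.0486). Within the Roquin pair Rc3h2 was thus the strongly recovered mRNA, and the rise of Rc3h1 was much smaller and called only in some settings. Libraries of tagged input in experiment 1 differed, library 1 being the highest of its group for all of the 7 except Nanos1.

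In the Zfp36 family all 3 mRNAs were recovered, Zfp36l1 least. Zfp36, the founding member also called tristetraprolin, held 178, 170 and 190 CPM in tagged IP of experiment 1 against 14.9, 14.6 and 12.7 CPM in tagged input. Its ratio was 12.8-fold and its tag-specific difference 3.52 (SE 0.15, edgeR adjusted p 9.68e-16). Zfp36l2 reached 423, 393 and 490 CPM in tagged IP from 46.8, 45.5 and 45.0 CPM in input. Its ratio was 9.51-fold and its difference 3.30 (SE 0.14, edgeR adjusted p 1.17e-15). Zfp36l1, the most abundant of the 7 in input, rose to 507, 485 and 602 CPM from 221, 199 and 200 CPM, a ratio of 2.57-fold and a difference of 1.31 (SE 0.14, edgeR adjusted p 3.88e-08). The groups of all 3 genes were apart in both experiments. Experiment 2 gave 2.88 (SE 0.21) for Zfp36, 2.45 (SE 0.19) for Zfp36l2 and 0.76 (SE 0.15) for Zfp36l1, with edgeR adjusted p of 1.45e-11, 5.52e-11 and 0.000389.

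Per kilobase, recovery changed the order of levels. In tagged IP of experiment 1 Zfp36l1 stood at 178 RPKM, Zfp36l2 at 123, Pum2 at 51.8, Zfp36 at 51.7, Nanos1 at 23.0, Rc3h2 at 19.6 and Rc3h1 at 3.70. Here Pum2 overlapped Zfp36, and Nanos1 overlapped Rc3h2, whereas Rc3h1 lay below the rest.

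**Figure D2:**
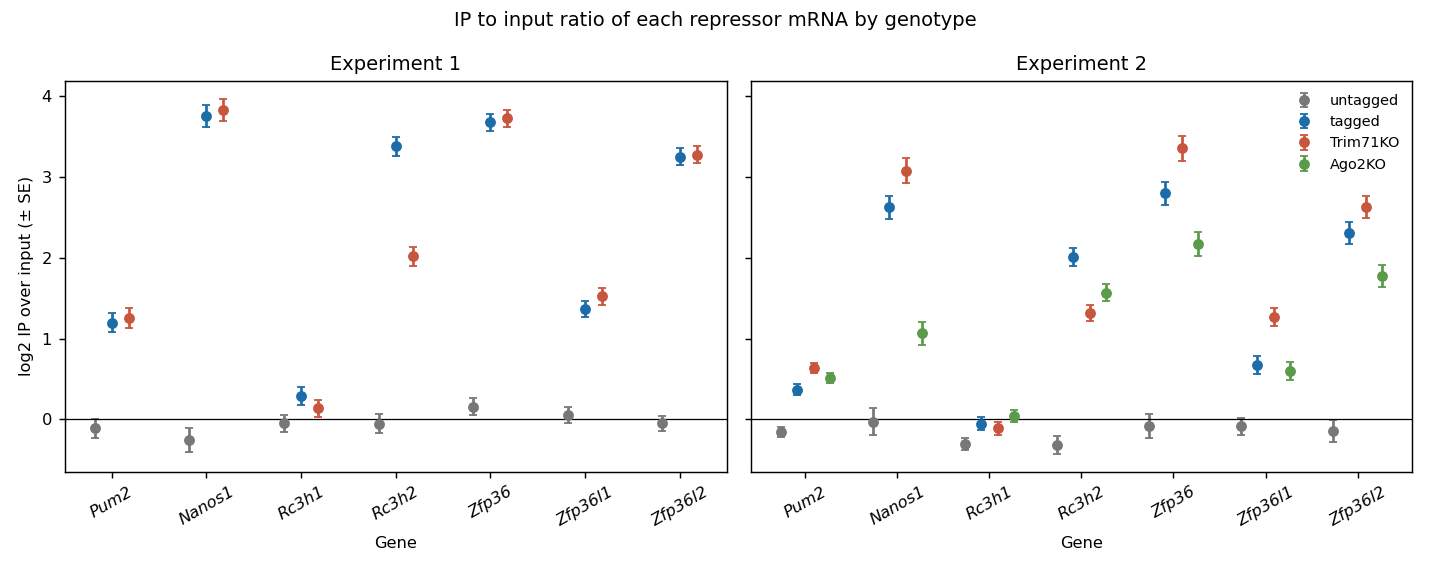
The log2 ratio of IP to input (vertical axis, ± SE of the fit, 3 IP and 3 input libraries per point) for the 7 mRNAs by genotype in each experiment. Nanos1, Rc3h2, Zfp36 and Zfp36l2 reach 3.25 to 3.75 in tagged cells of experiment 1, and Rc3h2 falls from 3.37 to 2.02 in Trim71KO cells of experiment 1 and from 2.01 to 1.32 in experiment 2.

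The recovery was smaller in experiment 2. In a fit of both experiments together, over 18620 genes, the tag-specific difference was lower in experiment 2 than in experiment 1 for 6 of the 7, as it was for 17.3% of genes tested. The drop ran from -0.65 (SE 0.22) for Zfp36l1 to -1.45 (SE 0.31) for Nanos1, with Rc3h1 at -0.19 (SE 0.18, edgeR adjusted p 0.454). Within tagged IP of experiment 2, library 1 was highest and library 3 lowest for Nanos1, Pum2, Rc3h2, Zfp36, Zfp36l1 and Zfp36l2, and Tnrc6a RNA ran the same way at 24215, 17194 and 12945 CPM. The part of Tnrc6a recovery in the differences between groups was not tested.

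Trim71-dependent association, the IP to input ratio in Trim71KO minus that in tagged cells, turned on Rc3h2. In experiment 1 the IP libraries of Trim71KO cells held 144, 123 and 117 CPM of Rc3h2, against 343, 357 and 452 CPM in tagged cells, while input stood at 31.6 ± 1.62 and 37.0 ± 6.03 CPM. The IP groups were apart, and the IP to input ratio was 4.05-fold in place of 10.4-fold. This log2 difference of -1.36 (SE 0.16, edgeR adjusted p 5.36e-06) was the only call among the 7, in a comparison that called 3.74% of all genes. For the other 6 the difference lay between -0.15 and 0.16.

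In experiment 2 Rc3h2 was again lower. Trim71KO IP held 119, 126 and 121 CPM against 227, 197 and 152 CPM in tagged IP, with input at 49.0 ± 1.08 and 47.7 ± 4.71 CPM. The difference was -0.69 (SE 0.15, edgeR adjusted p 0.0143), and the call was lost when tagged input library 3 was left out (-0.65, edgeR adjusted p 0.0524). Rc3h2 still stood above background in Trim71KO cells, with a remaining association over untagged cells of 2.07 (SE 0.17, edgeR adjusted p 2.36e-10) in experiment 1 and 1.63 (SE 0.15, edgeR adjusted p 1.10e-09) in experiment 2.

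Zfp36l1 moved the other way in experiment 2. Its Trim71KO IP libraries held 574, 505 and 517 CPM against 349, 301 and 256 CPM in tagged IP, with input at 221 ± 14.3 and 190 ± 12.4 CPM. The IP groups did not overlap, and the difference was 0.60 (SE 0.15, edgeR adjusted p 0.0472). That call was lost in 11 of 12 fits that left out a library and in 2 of 8 other settings, and in experiment 1 the difference was 0.16 (SE 0.14, edgeR adjusted p 0.667). Over all genes, 1.49% were called in experiment 2. With the replicate number as a block, which pairs tagged and Trim71KO libraries of experiment 2, the same 2 members were called and genes called went from 295 to 470. The other 4 tested members lay between -0.06 and 0.56, the highest being Zfp36 (SE 0.20, edgeR adjusted p 0.173), which passed in 1 of 8 other settings, and the values of Nanos1 in experiment 2 are described below.

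Whether the Trim71-dependent difference changed between the experiments was tested in the joint fit. There edgeR called 0 of 6 tested members, 1 at an unadjusted p under 0.05 (no other tool was run on it), and 0.0967% of genes. Rc3h2 differed there by 0.67 (SE 0.23, edgeR adjusted p 0.175).

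**Figure D3:**
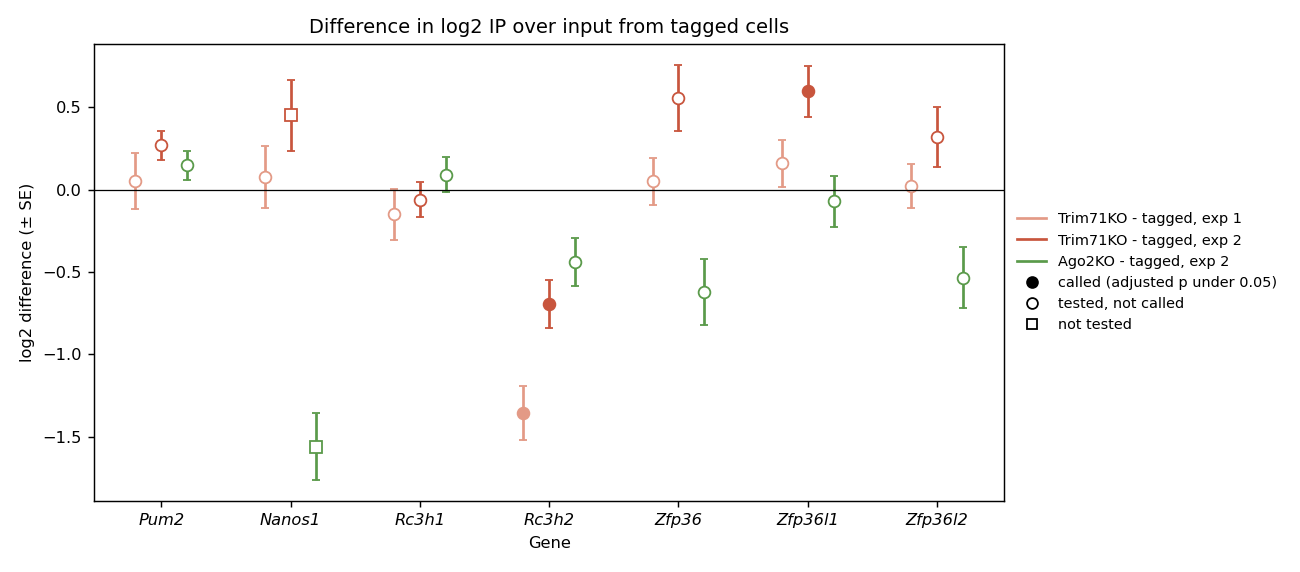
Difference in log2 IP over input from tagged cells (vertical axis, ± SE) for each mRNA in Trim71KO cells of both experiments and in Ago2KO cells of experiment 2. Filled circles passed an adjusted p of 0.05, open circles did not, and squares were not tested; Rc3h2 lies at -1.36 and -0.69 in Trim71KO, and Nanos1 at -1.56 in Ago2KO.

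Ago2-dependent association, the same contrast for Ago2KO cells, gave no call among the 6 members tested in the edgeR fit of all groups without a replicate block. Zfp36, Zfp36l2 and Rc3h2 had the lowest values of the 6, and Nanos1, which was not tested, lay below them. In the edgeR fit 3 of the 6 had an unadjusted p under 0.05, DESeq2 called 1, and 4.16% of all genes were called. Zfp36 held 107, 73.4 and 75.5 CPM in Ago2KO IP against 192, 157 and 130 CPM in tagged IP, groups that do not overlap. Its difference was -0.62 (SE 0.20, edgeR adjusted p 0.0941). For Zfp36l2 the IP libraries held 230, 162 and 147 CPM against 317, 233 and 199 CPM, which overlap, and the difference was -0.53 (SE 0.18, edgeR adjusted p 0.123). Rc3h2 differed by -0.44 (SE 0.15, edgeR adjusted p 0.103).

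For these 3 genes the call depended on the libraries and settings used. Each was called in 2 of 12 fits that left out a library and in 2 of 8 other settings. Those settings were the 2 replicate blocks for Rc3h2 and Zfp36l2, and the block pairing IP with input and DESeq2 for Zfp36. Replicate numbers were not shown to pair these libraries as a set: in IP, same-numbered tagged and Ago2KO libraries correlated at 0.577, 0.0657 and 0.416. Ago2KO IP library 1 was the highest of its group for Zfp36, Zfp36l2 and Rc3h2 and held 31193 CPM of Tnrc6a, against 17218 and 14785 CPM in the other 2. Without it all 3 genes were called, at -0.82 for Zfp36, -0.75 for Zfp36l2 and -0.52 for Rc3h2 (edgeR adjusted p 0.00508, 0.00236 and 0.0307). Without tagged IP library 3, the lowest of its group for these genes and for Tnrc6a, they were also called, at -0.78, -0.71 and -0.62 (edgeR adjusted p 0.0131, 0.0116 and 0.00172). Leaving out the highest Ago2KO or the lowest tagged IP library by itself makes the difference larger. These 2 fits therefore do not show that the full fit understates it. Pum2 at 0.15 (SE 0.09), Rc3h1 at 0.09 (SE 0.11) and Zfp36l1 at -0.07 (SE 0.15) lay closer to 0 in the full fit.

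Nanos1, on which the choice of genes rests, is described here for experiment 2. Its IP libraries held 73.3, 53.1 and 40.9 CPM in tagged cells, 39.8, 36.1 and 36.2 CPM in Trim71KO cells and 25.4, 21.0 and 21.0 CPM in Ago2KO cells. Input held 9.28, 8.49 and 9.29 CPM in tagged cells, 5.16, 4.38 and 3.71 CPM in Trim71KO cells and 10.9, 10.1 and 11.4 CPM in Ago2KO cells. Neither the IP nor the input groups overlapped, and IP was lowest where input was highest. The IP to input ratio was therefore 6.16-fold in tagged cells, 8.43-fold in Trim71KO cells and 2.09-fold in Ago2KO cells. On the log2 scale Ago2KO differed from tagged cells by -1.56 (SE 0.20) and Trim71KO by 0.45 (SE 0.22). The first value was -1.33 without tagged IP library 1 and -1.78 without tagged IP library 3. Over untagged cells, 1.09 (SE 0.22) remained in Ago2KO and 3.10 (SE 0.23) in Trim71KO.

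Set directly against each other, the knockouts of experiment 2 gave a range of differences in association, Trim71KO minus Ago2KO. Nanos1 was at 2.01 (SE 0.22), Zfp36 at 1.18 (SE 0.21), Zfp36l2 at 0.85 (SE 0.18) and Zfp36l1 at 0.67 (SE 0.15). Pum2 (0.12, SE 0.09), Rc3h1 (-0.15, SE 0.11) and Rc3h2 (-0.25, SE 0.15) had smaller values. The IP libraries of the 2 knockouts were apart for all members but Rc3h2. They were higher in Trim71KO for Nanos1, Pum2 and the Zfp36 family, and lower for Rc3h1. How many of all genes lie apart in this way is not given here, and none of these values was tested. In input the same contrast was -1.28 (SE 0.17) for Nanos1 and 0.65 (SE 0.13) for Zfp36l2.

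Most of the 7 remained associated in both knockouts. Against untagged cells, 6 of 7 were called higher in Trim71KO of experiment 1, where 25.6% of genes were, and 5 of 6 tested in Trim71KO of experiment 2, where 23.0% were. Rc3h1 was the exception at 0.19 (SE 0.15, edgeR adjusted p 0.313) and 0.19 (SE 0.11, edgeR adjusted p 0.177). In Ago2KO cells 6 of 6 tested were called higher, against 15.8% of genes, from 0.34 (SE 0.11, edgeR adjusted p 0.0216) for Rc3h1 to 2.26 (SE 0.21, edgeR adjusted p 3.78e-09) for Zfp36. The Rc3h1 call was lost in 6 of 12 fits that left out a library and in 1 of 8 other settings. Rc3h1 was not called in tagged over untagged cells, so its call in Ago2KO does not show an association that remained. Each of these comparisons shares its tagged or untagged libraries with others above, so they are not independent of one another.

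Between Trim71KO and tagged cells, input RNA of Zfp36 was called lower and that of Zfp36l2 higher in both experiments. In experiment 1 edgeR called 3 of 7, beside 34.0% of all genes, and in experiment 2 it called 2 of 6 tested, beside 27.2%, so the members' share was near that of all genes. Zfp36 input was 10.5, 9.95 and 9.87 CPM in Trim71KO against 14.9, 14.6 and 12.7 CPM in tagged cells, without overlap, a log2 change of -0.48 (SE 0.11, edgeR adjusted p 0.00191). Zfp36l2 input was 57.3, 60.4 and 57.4 CPM against 46.8, 45.5 and 45.0 CPM, a change of 0.35 (SE 0.10, edgeR adjusted p 0.00664). Nanos1 input, 3.48, 4.36 and 5.22 CPM against 6.40, 6.42 and 7.25 CPM, changed by -0.61 (SE 0.15, edgeR adjusted p 0.00348). Its IP to input ratio in experiment 1 was 14.2-fold in Trim71KO and 13.5-fold in tagged cells, a difference of 0.08 (SE 0.19, edgeR adjusted p 0.905).

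In experiment 2 Zfp36l2 stood at 82.9, 79.4 and 84.2 CPM in Trim71KO input against 53.8, 48.5 and 48.7 CPM, a change of 0.71 (SE 0.13, edgeR adjusted p 0.000201). Zfp36 stood at 15.5, 15.98 and 19.7 CPM against 21.8, 25.1 and 22.3 CPM, a change of -0.43 (SE 0.15, edgeR adjusted p 0.0387) whose call was lost in 5 of 6 fits that left out a library and in 1 of 7 other settings. Nanos1 was at -1.03 (SE 0.17), which was not tested. Pum2, Rc3h1, Rc3h2 and Zfp36l1 lay between -0.19 and 0.22. In the joint fit edgeR called 0 of 6 tested members as different between the experiments, 1 at an unadjusted p under 0.05 (no other tool was run on it), beside 22.8% of genes.

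Summed markers of several cell types moved with the Trim71KO label in input. All 7 of 7 primitive endoderm markers had a row, with 0 of them at 0 in a group, and summed to 12.5 to 14.8 CPM in Trim71KO and 61.9 to 77.0 CPM in tagged cells of experiment 1, and to 7.72 to 9.71 and 21.8 to 23.6 CPM in experiment 2. Germ-cell markers, 5 of 7 and 6 of 7 with a row, summed to 53.6 to 58.6 against 110.0 to 137.6 CPM and to 88.6 to 98.2 against 193 to 201 CPM. Of fibroblast markers 2 of 7 had a row, and their sum was 58.0 to 61.8 CPM in Trim71KO against 22.7 to 24.5 CPM in experiment 1, and 49.5 to 51.9 against 34.2 to 35.8 CPM in experiment 2. Pluripotency markers, 8 of 8, summed to 7606 to 7793 against 6531 to 7476 CPM and to 8547 to 8776 against 7702 to 7902 CPM. Of trophectoderm markers 2 of 4 had a row, and they summed to 6.43 to 7.89 against 4.49 to 4.82 CPM in experiment 1. In experiment 2 they summed to 14.1 to 16.9 against 11.9 to 14.1 CPM, which overlap. In experiments 1 and 2 edgeR called lower 6 and 6 of 7 primitive endoderm markers, and 3 of 5 and 5 of 6 germ-cell markers. It called higher 2 and 1 of 2 fibroblast, 3 and 5 of 8 pluripotency, and 1 and 1 of 2 trophectoderm markers. None was called the other way. The fibroblast markers had a median log2 change of 0.14 in experiment 2, and germ-cell Nanos3 was at 0.90 in experiment 1, not called. The part of these markers in the input changes of Nanos1, Zfp36 and Zfp36l2 was not tested. In such bulk lysates fewer cells of a type and less RNA per cell cannot be told apart.

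**Figure D4:**
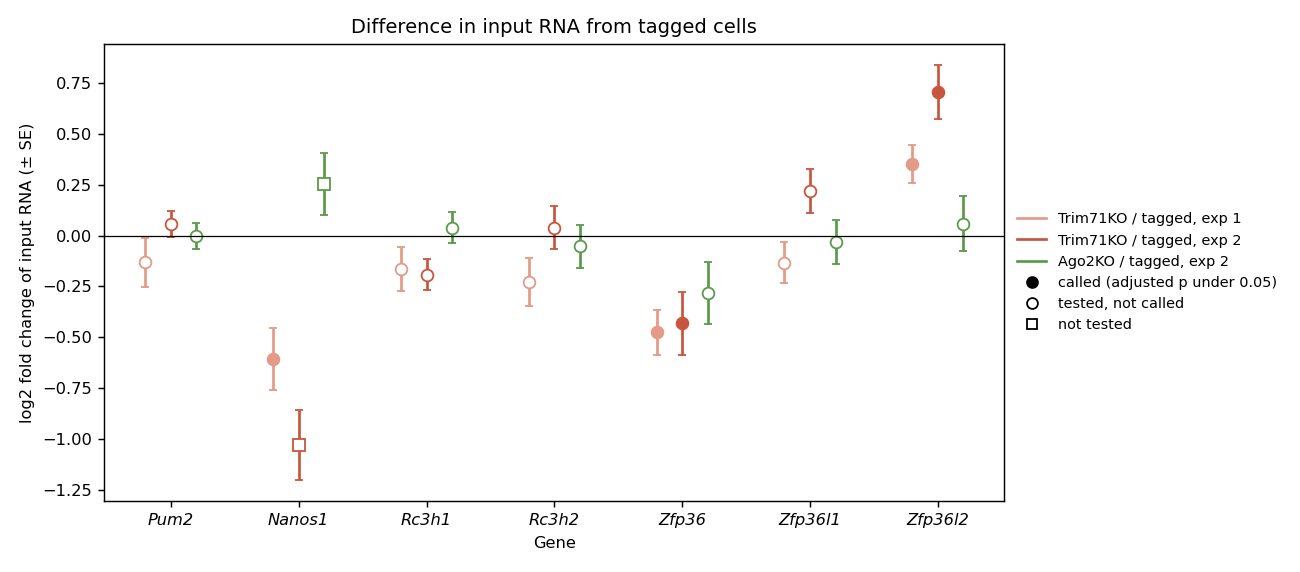
Log2 fold change of input RNA from tagged cells (vertical axis, ± SE) for each mRNA in Trim71KO cells of both experiments and in Ago2KO cells. Filled circles passed an adjusted p of 0.05, open circles did not, and squares were not tested; Zfp36l2 lies at 0.35 and 0.71 and Zfp36 at -0.48 and -0.43 in Trim71KO.

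In Ago2KO cells no input level of a tested member passed. Among the 6 members tested, edgeR called 0, with 0 at an unadjusted p under 0.05 and 0 by DESeq2, while 6.96% of genes were called. Values ran from -0.28 (SE 0.15) for Zfp36 to 0.06 (SE 0.13) for Zfp36l2, and Nanos1 was at 0.25 (SE 0.15), not tested. In Ago2KO input primitive endoderm markers summed to 10.1 to 11.5 CPM and germ-cell markers to 132 to 159 CPM, both below tagged input. Pluripotency markers summed to 8335 to 8470 CPM, above it. Called lower were 4 of 7 primitive endoderm and 3 of 6 germ-cell markers, and of 8 pluripotency markers 4 were called higher and 1 lower. Between tagged and untagged input, 1 of 7 was called in experiment 1, where 10.6% of genes were called. That was Zfp36, at -0.49 in tagged against untagged input (SE 0.10, edgeR adjusted p 0.00474), lost in 2 of 6 fits that left out a library. In experiment 2 edgeR called 0 of 7, with 0 at an unadjusted p under 0.05 and 0 by DESeq2, beside 1.39% of genes, and Zfp36 was at -0.21 (SE 0.15).

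Across libraries the 7 mRNAs fell into 6 that moved together and Rc3h1. Input and IP libraries of all genotypes enter this comparison, so mRNAs raised in tagged IP correlate with one another. The split therefore follows the tag-specific calls above and adds no separate support, and the nearest patterns below share this limit. Over the 18 libraries of experiment 1, which share the contrast of IP with input, Pearson's r of log2 CPM between pairs without Rc3h1 was 0.911 to 0.986, and with Rc3h1 it was 0.407 to 0.655. Over the 24 libraries of experiment 2 the ranges were 0.749 to 0.969 and -0.341 to 0.081. Among 11781 genes the pattern most like Nanos1 in experiment 2 was that of Bcl2l11, a pro-apoptotic Bcl2 relative (r = 0.992, and 0.980 in experiment 1), followed by Cnot9, a CCR4-NOT subunit (0.986 and 0.965), and Slc25a39 (0.984 and 0.986). Closest to Rc3h2 were Gm44505, Yod1, a deubiquitinase, and Ash1l, a histone methyltransferase, at 0.992 to 0.993 (0.966 to 0.986 in experiment 1).

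For the Zfp36 family the nearest patterns were those of Lpin1, Slc25a30 and Csnk1a1 for Zfp36 (0.990 to 0.995 in experiment 2 and 0.917 to 0.968 in experiment 1), Arrdc3, Adnp2 and Pip5k1c for Zfp36l2 (0.994 to 0.996 and 0.972 to 0.994) and Ctdsp1, Trim25 and Pdk1 for Zfp36l1 (0.980 to 0.983 and 0.947 to 0.988). Pum2 was closest to Tanc1, Fmr1, the RNA-binding protein of fragile X syndrome, and Btaf1 (0.974 to 0.981 and 0.901 to 0.983). Rc3h1 had no neighbour as close. Its nearest were Pign, Gm3325 and B230354K17Rik, at 0.819 to 0.897 and 0.652 to 0.841.

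The partners of these repressors were read from lists written from memory with earlier results of these data known, so their counts are descriptions. Beside the shares of all genes called higher given above, 28.8% were called lower in experiment 1 and 8.77% in experiment 2. Of 16 subunits and adaptors of CCR4-NOT, 10 were called higher in tag-specific association in experiment 1 and 2 lower (median 1.11), and 11 and 2 in experiment 2 (median 0.59). With library size alone the call of Cnot8 in experiment 2 was lost (0.09, edgeR adjusted p 0.463). In experiment 1 the highest were the antiproliferative adaptors Tob2 (5.10, and 3.57 in experiment 2) and Btg2 (4.405 and 3.12) and the deadenylase subunits Cnot6l (4.31 and 2.74) and Cnot6 (4.20 and 3.09), and in experiment 2 the adaptor Tob1 was highest (4.02 and 3.62). Among 11 relatives of the 7 genes 9 had a row, and of these 4 were higher and 2 lower, then 3 higher. They include the RNase gene Zc3h12c (4.15 and 3.11) and N4bp1 (1.90 and 1.11).

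Of 8 further binders of AU-rich and related elements, 2 were higher and 6 lower in experiment 1, and 2 and 2 in experiment 2. The lower count depended on the scaling: it was 5 and 5 in experiments 1 and 2 with RLE factors, and 5 and 6 with library size alone. Elavl2, a neuronal Hu protein, was at 3.35 and 2.56 and Igf2bp1 at 2.00 and 1.28, whereas Ybx1 was at -1.42 and -0.41. Of 7 kinases and adaptors that act on Zfp36 proteins, 2 were higher and 4 lower, then 1 and 3, or 0 and 5 in experiment 2 with library size alone. Mapkapk2, which phosphorylates tristetraprolin, was at 0.79 and 0.33, and the 14-3-3 gene Ywhae at -1.37 and -0.33. With library-size scaling the value of Mapkapk2 in experiment 2 was 0.12 and not called.

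mRNAs known as targets of the 3 families were also listed. Of 10 Zfp36 targets 9 had a row, and of these 7 were higher and 1 lower in experiment 1 and 6 higher in experiment 2, led by Cdkn1a, the p21 cell-cycle inhibitor (5.84 and 4.65), and the phosphatase gene Dusp1 (2.79 and 2.00). Of 8 Pumilio targets 8 were higher, then 6, led by E2f3 (3.88 and 3.48) and the naive pluripotency factor Klf2 (2.73 and 2.42). With library size alone 1 call of each of these 2 lists was lost in experiment 2. These were Mllt11 among the Zfp36 targets (0.34, edgeR adjusted p 0.0952) and Tfcp2l1 among the Pumilio targets (0.16, edgeR adjusted p 0.228). Of 8 Roquin targets 6 had a row, and of these 1 was higher and 2 lower, then 1 higher. That 1 was Ier3 (1.81 and 1.47), an early response gene that the Zfp36 list also holds.

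Some genes of these lists differed in the knockouts. In Trim71KO of experiment 1, E2f3 (-1.46, SE 0.17, edgeR adjusted p 3.5e-06), Btg2 (-1.21, SE 0.11) and Tob2 (-0.88, SE 0.16) had less association than in tagged cells. In experiment 2 E2f3 was again lower, at -1.01 (SE 0.22, edgeR adjusted p 0.0178). Btg2 (-0.56, SE 0.24, edgeR adjusted p 0.254) and Tob2 (-0.25, SE 0.22, edgeR adjusted p 0.649) were not called there. Btg2 input was higher in Trim71KO than in tagged cells of experiment 1 (0.88, SE 0.08, edgeR adjusted p 4.23e-08), and a higher input lowers the ratio. In Ago2KO cells the ratios of Cnot6 (-0.79, SE 0.15), Cnot6l (-0.77, SE 0.15) and Ccnd1 (-0.54, SE 0.10), a Zfp36 target, were lower (edgeR adjusted p 0.00162, 0.00167 and 0.00132). Ccnd1 input was higher in Ago2KO than in tagged cells (0.77, SE 0.07, edgeR adjusted p 9.1e-08), so its lower ratio does not show a lower IP level. Input of Cnot6 (-0.15, SE 0.11) and Cnot6l (0.30, SE 0.11) was not called.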

How the data were processed

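Per the labels, bead-bound and input RNA were sequenced with a stranded total RNA kit. The submitters' processing notes name bcl2fastq 2.20, STAR 2.7.3a and GRCm38; the counting tool and its use of strand are not given in the sources used here. Whole-number counts, deposited by the authors as 1 table per experiment, carry a gene length and RPKM columns, also deposited, which served only as a check. Levels per kilobase were computed from CPM and that length.

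The test was edgeR's quasi-likelihood F test (edgeR 4.0.16, R 4.3.3; TMM, filterByExpr, group means, all groups of an experiment in 1 fit), with Benjamini-Hochberg adjustment over all genes and a threshold of 0.05. SE is the log2 value over the square root of F. For Trim71-dependent association the test was also run on simulated counts, with an outcome not given here. The simulated libraries were independent and used the dispersion of the fit, so they held no recovery differences shared across genes. Alternatives were RLE factors, library size alone, DESeq2 1.42.0, other filters, only the groups compared, 2 replicate blocks and leaving out each library. The joint fit was added after seeing the data. Replicate pairs differed by more than sampling noise (chi-square per gene 2.87 to 64.1 over 42 pairs).

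The members and lists were chosen with earlier results of these data known. Named genes are the members, Tnrc6a, Trim71 and Ago2 as checks, the 3 genes most correlated with each member, and list genes. Replicate numbers were taken to pair tagged with Trim71KO libraries of experiment 2, where deviations of same-numbered libraries correlated at 0.183 to 0.333 in IP and 0.206 to 0.299 in input. Tagged IP with tagged input of experiment 2 also correlated for each number, at 0.104 to 0.183. Between tagged and Ago2KO libraries the 3 numbers gave 0.577, 0.0657 and 0.416 in IP and 0.22, 0.0031 and 0.217 in input, so number 2 was not shown to pair. Pairing was accepted only where each of the 3 numbers passed a fixed minimum. In IP, numbers 1 and 3 of tagged and Ago2KO libraries correlated more than any number of tagged and Trim71KO libraries, so this decision turned on number 2. The labels do not say what a number shares.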

Additional observations from a re-analysis of the deposited data

Results flagged for a closer look

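Tag-specific association was lower in experiment 2 than in experiment 1 for 6 of the 7 mRNAs by a test of the difference itself, in an edgeR fit of both experiments. The log2 difference, experiment 2 minus experiment 1, was -1.45 for Nanos1 (SE 0.31, adjusted p 0.000708), -1.21 for Rc3h2 (SE 0.24, adjusted p 0.000246) and -0.95 for Zfp36l2 (SE 0.25, adjusted p 0.00411). It was -0.89 for Pum2 (SE 0.19, adjusted p 0.00078), -0.74 for Zfp36 (SE 0.27, adjusted p 0.0365) and -0.65 for Zfp36l1 (SE 0.22, adjusted p 0.0253). The experiments share no library, and of all genes 17.3% were called lower in the same way.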

How the results depend on the processing

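Limits: groups hold 3 libraries, and the cause of each change below was not tested. In Trim71-dependent association of experiment 2, 295 genes were called, against 489 with library size alone, 470 with the replicate block within fraction, 522 with the block pairing IP with input, 548 with DESeq2 and 136 with only the groups compared. There 2 members were called, but 1 with RLE factors, 1 without a filter and 3 with the block pairing IP with input, which added Zfp36 (0.57, adjusted p 0.0455). In Ago2-dependent association 0 members were called, against 2 with the block within fraction (Rc3h2 and Zfp36l2), 3 with the block pairing IP with input (these and Zfp36) and 1 with DESeq2 (Zfp36); numbers were not shown to pair these libraries. With only the groups compared, calls went from 275 to 497 genes in input of tagged against untagged cells of experiment 2, and from 1376 to 2481 genes, with 1 member in place of 0, in input of Ago2KO cells. In input of Trim71KO cells of experiment 2, RLE factors left 1 of 2 members. The block within fraction changed no call of a member between tagged and Trim71KO libraries of experiment 2.

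Leaving out a library gave 339 to 1435 genes (703 with all) in Trim71-dependent association of experiment 1, and 98 to 562 genes and 0 to 2 members in experiment 2. It gave 0 to 3 members in Ago2-dependent association, 722 to 3053 genes and 0 to 1 members in input of tagged against untagged cells of experiment 1, 154 to 195 genes in experiment 2, 1 to 3 members in input of Trim71KO cells of experiment 2, and 774 to 922 genes in input of Ago2KO cells.

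Values near 0 that were not called changed sign. With library size alone these were input of tagged against untagged cells of experiment 1 for Nanos1 (-0.027) and Zfp36l2 (-0.0078), Ago2-dependent Zfp36l1 (0.041), input in Trim71KO of experiment 2 for Pum2 (-0.012) and Rc3h2 (-0.028), and the difference between experiments in Zfp36 input (-0.071). In input of tagged against untagged cells of experiment 2, Pum2 was 0.0047 with RLE, 0.023 with library size, 0.013 without a filter, 0.00315 with a CPM filter, 0.0048 with DESeq2 and 0.012 with only the groups compared, and Rc3h2 was 0.014, 0.0043 and 0.0037 with library size, without a filter and with only the groups compared. Over left-out libraries, Trim71-dependent values of experiment 1 ran from -0.068 to 0.29 for Pum2, -0.24 to 0.027 for Rc3h1 and -0.043 to 0.17 for Zfp36l2, and in experiment 2 from -0.15 to 0.013 for Rc3h1. Ago2-dependent Zfp36l1 ran from -0.24 to 0.037. Input of tagged against untagged cells ran from -0.015 to 0.13 for Nanos1 and -0.18 to 0.087 for Rc3h1 in experiment 1. In experiment 2 it ran from -0.026 to 0.031 for Pum2, -0.082 to 0.015 for Rc3h1, -0.075 to 0.032 for Rc3h2, -0.0072 to 0.10 for Zfp36l1 and -0.10 to 0.0056 for Zfp36l2. Input in Trim71KO of experiment 2 ran from -0.00096 to 0.12 for Pum2 and -0.0026 to 0.12 for Rc3h2. Input in Ago2KO ran from -0.030 to 0.017 for Pum2, -0.0069 to 0.089 for Rc3h1, -0.094 to 0.019 for Rc3h2 and -0.10 to 0.018 for Zfp36l1.

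Library size alone moved the split of higher and lower calls from 3745 and 1734 to 2861 and 4971 in tag-specific association of experiment 2 (median of all genes -0.03 to -0.24), from 4547 and 3100 to 3654 and 4737 for what remained in Trim71KO, from 3133 and 1010 to 2564 and 1913 for what remained in Ago2KO, and from 76 and 746 to 165 and 468 in Ago2-dependent association. In Trim71-dependent association it moved from 51 and 652 to 133 and 408 in experiment 1 and from 149 and 146 to 370 and 119 in experiment 2. In input it moved from 1069 and 914 to 704 and 1293 for tagged cells of experiment 1, from 2671 and 2712 to 1845 and 3494 for Trim71KO of experiment 2, and from 867 and 509 to 611 and 585 for Ago2KO. RLE factors moved it from 149 and 146 to 88 and 140 in Trim71-dependent association of experiment 2 and from 3133 and 1010 to 2891 and 1570 for what remained in Ago2KO. Library size alone also moved the median of all genes from -0.15 to -0.01 and from -0.02 to -0.17 for what remained in Trim71KO of experiments 1 and 2, from -0.04 to 0.07 in Trim71-dependent association of experiment 1 and from 0.00 to 0.11 in Ago2-dependent association.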
